A study of Homo sapiens with 6 samples.

Results

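The translation initiation and elongation factors are the proteins that start protein synthesis on an mRNA and then move the ribosome along it. Here they were taken as every array probe whose platform gene symbol is EIF or EEF followed by a digit, without the EIF2AK kinases and without pseudogenes. The rule gave 94 of 48803 probes, which stand for 60 genes, after 4 EIF2AK probes and 1 pseudogene probe were left out. Of these, 86 probes and 59 genes lay above the filter on dim probes (a mean normalised intensity of 89.9) and were tested among 29282 probes and 14145 genes. The rule used names only, but the members were chosen with earlier results of these data known. The cells were SKOV3ip1, a line derived from the human ovarian carcinoma line SKOV3, which both groups share. One group of 3 arrays carried RNA of cells with a control siRNA (siCon) and the other 3 arrays RNA of cells with an siRNA against STAT3 (siSTAT3). STAT3 is a transcription factor switched on by cytokine and growth factor receptors. The study asked what STAT3 does in these cells. The labels used here give neither the siRNA sequences nor the time after transfection, and do not say whether replicates were separate cultures, so p-values measure the spread between these 6 samples of 1 cell line, which may be technical.

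In textbook terms, initiation joins a charged initiator tRNA, carried by eIF2, to the small ribosomal subunit with the help of eIF1, eIF1A and eIF3. The cap-binding complex eIF4F, made of eIF4E, the scaffold eIF4G and the helicase eIF4A, brings the mRNA, and the 4E-binding proteins block it. In elongation, eEF1A delivers each aminoacyl-tRNA and eEF2 moves the ribosome on by 1 codon. The kinase eEF2K phosphorylates eEF2 and so slows elongation, which makes it the brake of this step.

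Median unnormalised intensity ranged from 93.0 to 97.1 over the 6 arrays. STAT3 itself was at 2778, 2241 and 2544 on the siCon arrays and at 589, 549 and 667 on the siSTAT3 arrays of probe ILMN_2401978, and all 3 tested STAT3 probes had every siSTAT3 array below every siCon array, with 23.9% to 32.3% of the control intensity left. Of 9 fixed markers of an epithelial ovarian carcinoma line, 7 had means above 2 times the median intensity of all probes (94.8). They were KRT7, KRT8, KRT18, KRT19, EPCAM, ERBB2 and PAX8, while MUC16 and WT1 lay near that median. KRT8 was at 1495, 1507 and 1184 in siCon and lower, at 981, 879 and 1050, in siSTAT3. The siSTAT3 arrays also lay below the siCon arrays for WT1 and above them for PAX8. The summed intensity of the 9 carcinoma markers was 15082 to 16950 in siCon and 15584 to 17045 in siSTAT3. The 4 leukocyte, 4 endothelial and 4 fibroblast markers lay between 77.1 and 125 in the group means. Their summed intensity was 369 to 387 in siCon and 356 to 384 in siSTAT3 for leukocyte markers, 345 to 422 and 369 to 402 for endothelial markers, and 348 to 386 and 351 to 356 for fibroblast markers. Values below are normalised probe intensities on a linear scale, and changes are log2 siSTAT3 over siCon with the standard error of limma's fit. Different probes bind with different strength, so levels are compared only within a probe. In RNA from a whole culture, fewer cells of a kind and less RNA per cell cannot be told apart.

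After STAT3 siRNA the factors as a set stayed close to their control level, and 1 of them fell. EEF2K, the kinase of eEF2, dropped 1.80-fold and was the 1 member of 59 past the threshold (limma, adjusted p under 0.05), with none higher. Over all tested genes 1.46% were called, 1.07% lower and 0.396% higher, so 1 call among 59 genes is near the background. At an unadjusted p under 0.05 there were 4 members, with EEF2K, EIF4G1 and EIF5A2 lower and EEF1AKMT3 higher, against 12.1% of all genes and 6.78% of the members. By probe the count was also 1 of 86, again the EEF2K probe, against 0.874% of all tested probes (0.673% lower and 0.201% higher). The groups of arrays did not overlap for 6 members (10.2%), against 17.2% of all genes. They were EEF2K, EIF4G1, EIF5A2 and EIF3L with siSTAT3 lower (8.56% of all genes) and EEF2 and EEF1AKMT3 with siSTAT3 higher (8.63% of all genes).

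The median log2 change of the 59 genes was -0.01, with 50% of them between -0.10 and 0.07, beside a median of 0.01 and quartiles of -0.09 and 0.10 over all tested genes. Under median scaling in place of quantile normalisation the medians were 0.05 for the members and 0.03 for all tested genes. A change of less than 0.2 in either direction was found for 53 members (89.8%, against 80.9% of all genes). The 95% interval lay wholly between -0.5 and 0.5 for 54 members. The exceptions were EEF2K, EIF4G1, EIF5A2, EIF3M and EEF1AKMT3. In the plot of changes by role EEF2K has the lowest estimate, and its interval (-1.09 to -0.61) overlaps that of EIF4G1 (-0.72 to -0.22).

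**Figure D1:**
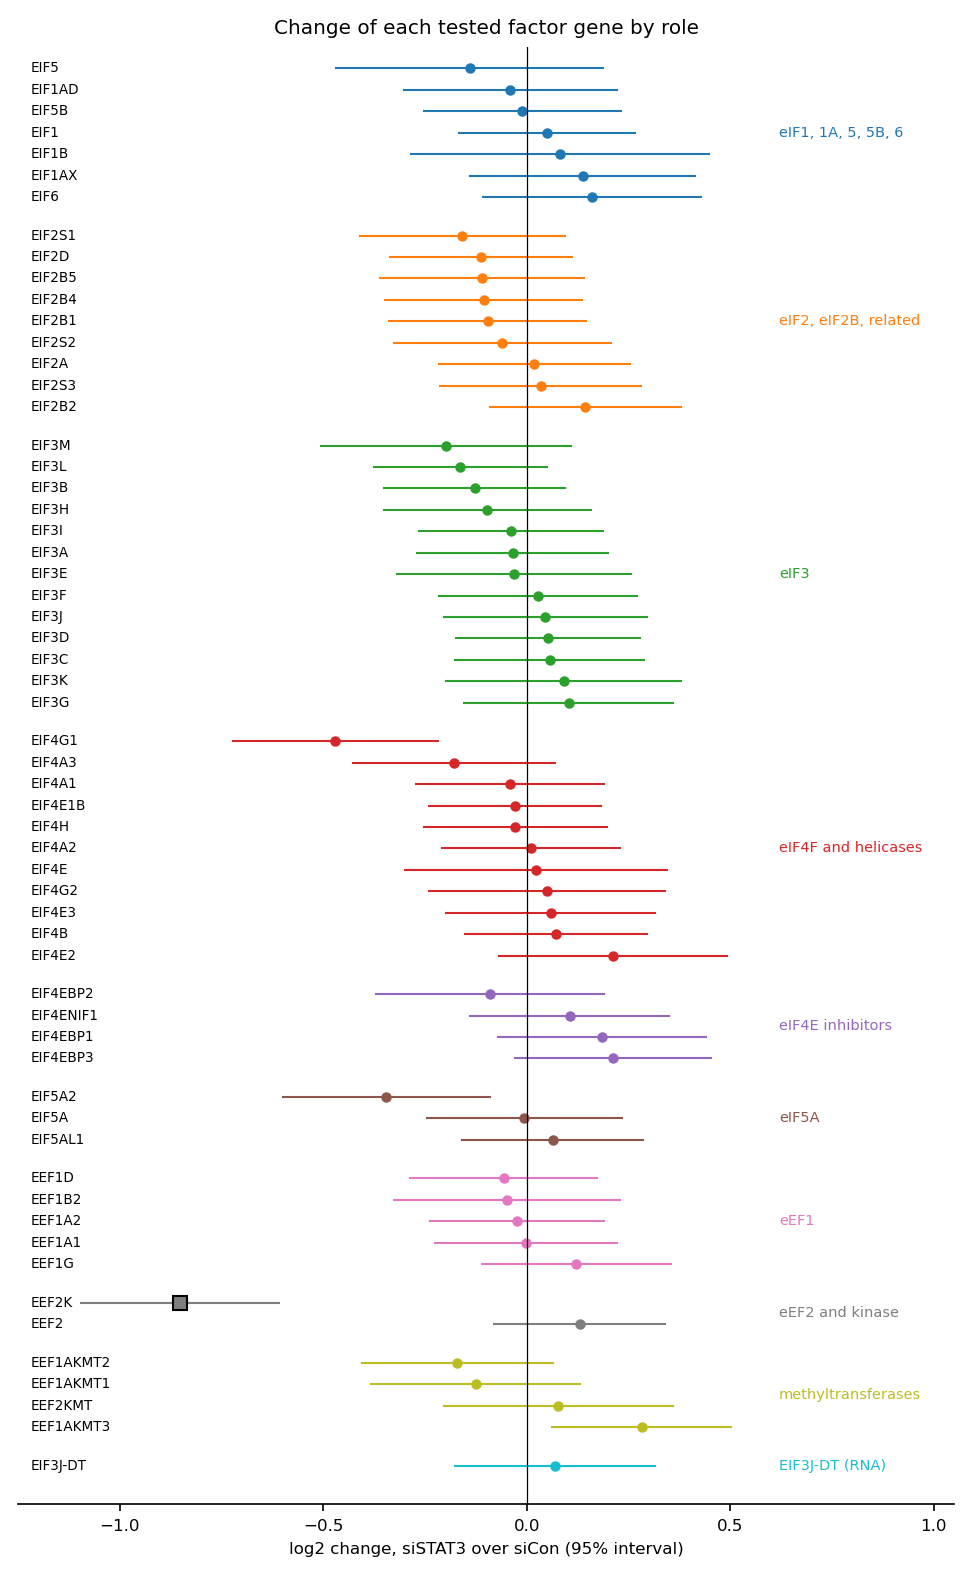
Log2 change of each of the 59 tested factor genes, siSTAT3 over siCon, with its 95% interval, ordered within role groups (colours). The square marks EEF2K at -0.85, the gene past the threshold, and circles mark genes that did not pass.

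**Figure D2:**
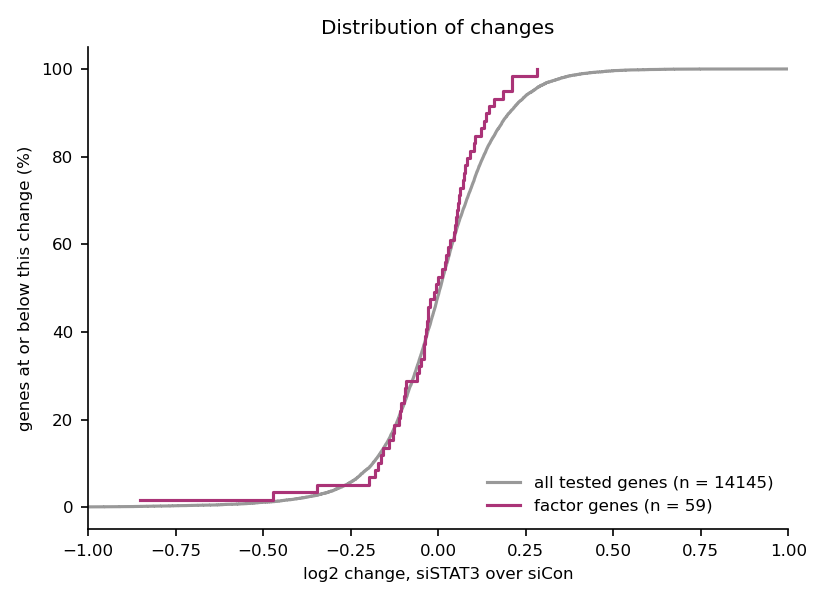
Cumulative share of genes (%) at or below each log2 change, siSTAT3 over siCon, for the 59 factor genes and for all 14145 tested genes. The factor curve is the steeper between its quartiles of -0.10 and 0.07 and has EEF2K at its lower end (-0.85). The axis ends at -1 and 1.

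Elongation held the change that passed. EEF2K was at 1175, 924 and 956 on siCon arrays 1 to 3 and at 540.4, 583 and 560.2 on siSTAT3 arrays 1 to 3. Every siSTAT3 array lay well below the lowest siCon array, and the siSTAT3 arrays were close together. The mean went from 1018 ± 137 to 561 ± 21.4 (SD, n = 3 each), a log2 change of -0.85 ± 0.11 with an adjusted p of 0.00111 by limma, and EEF2K ranked 25 of 14145 genes by p. The call held under each of the 17 alternative settings, with values from -0.75 to -0.92, including a test against a fold of 1.2 (adjusted p = 0.0325). EEF2K has 1 probe, so no other probe could be set beside it.

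EEF2, the translocase that this kinase inhibits, did not pass. It was at 9999, 9931 and 9986 in siCon and at 11144, 10585 and 11023 in siSTAT3, a log2 change of 0.13 ± 0.10 (limma, adjusted p = 0.69). The 3 siSTAT3 arrays lay above the 3 siCon arrays, as for 8.63% of all tested genes, and the 95% interval ran from -0.08 to 0.34. Within arrays, log2 EEF2K minus log2 EEF2 was -3.09, -3.43 and -3.39 in siCon and -4.37, -4.18 and -4.30 in siSTAT3, 2 groups that do not overlap. The exact two-sided permutation test of that difference (-0.98) gave p = 0.1, the smallest that 3 against 3 arrays allow. The pair was chosen after the values were seen, with each gene already separating the groups, so the ratio had to separate them too and this p adds no evidence. EEF2KMT, which methylates a lysine of eEF2 and is no kinase, gave 0.08 ± 0.13.

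**Figure D3:**
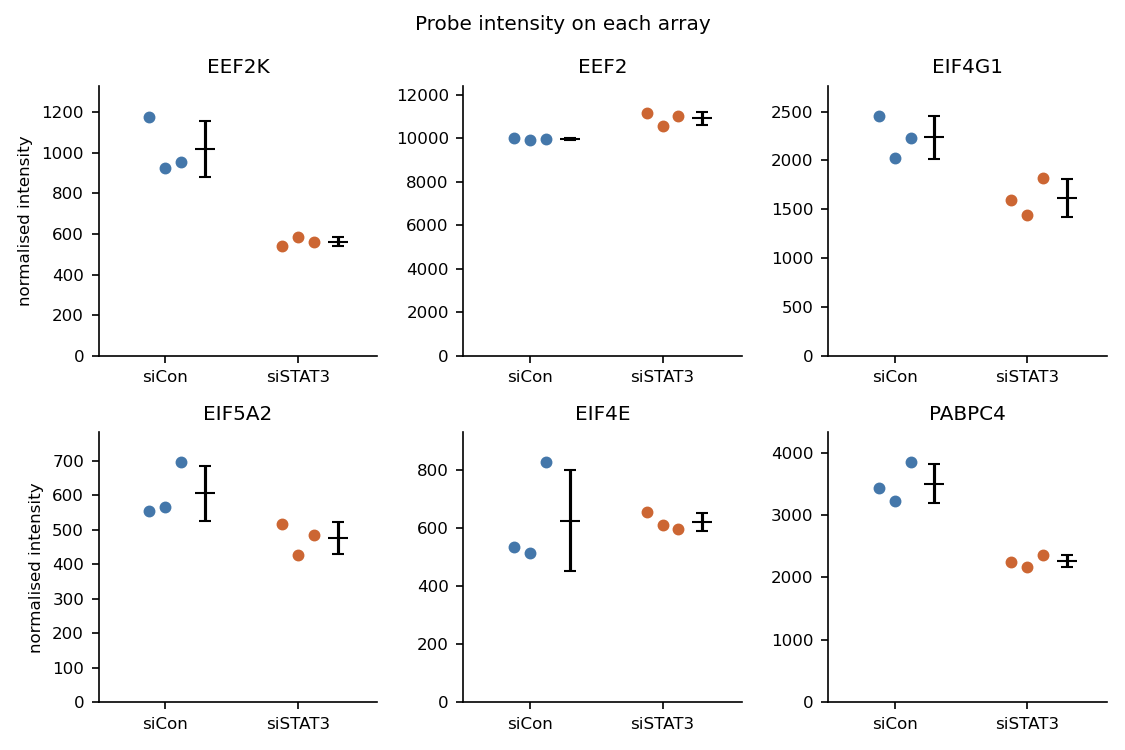
Normalised intensity of the representative probe on each siCon (blue) and siSTAT3 (orange) array for 5 factor genes and PABPC4, with group mean and SD (black, n = 3) beside the points; each axis starts at 0. EEF2K falls from a mean of 1018 to 561 and PABPC4 from 3504 to 2262, and both groups overlap for EIF4E.

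The upstream sequence of EEF2K is shown because it belongs to the gene that fell. It is the 250 bases before the start annotated by RefSeq on GRCh38.p14, chr16:22206028-22206277, plus strand, with an E-box (CACGTG, a palindrome bound by MYC, MAX and USF factors) in capitals.
EEF2K: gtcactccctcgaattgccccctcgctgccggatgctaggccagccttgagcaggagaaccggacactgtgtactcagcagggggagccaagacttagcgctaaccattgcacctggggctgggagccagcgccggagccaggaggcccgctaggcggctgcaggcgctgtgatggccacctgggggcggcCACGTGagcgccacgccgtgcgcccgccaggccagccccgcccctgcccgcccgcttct

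The eEF1 subunits deliver aminoacyl-tRNA (EEF1A1, EEF1A2) or belong to the complex that exchanges the nucleotide on eEF1A (EEF1B2, EEF1D, EEF1G). None of the 5 tested passed. EEF1A1 was at 38463, 40229 and 37900 in siCon and at 40229, 35469 and 40963 in siSTAT3 on its representative probe (0.00 ± 0.10), and the groups overlapped. Its 3 probes gave -0.14, 0.00 and 0.11. On the first of these the siSTAT3 arrays (35688, 37345 and 35688) lay below the siCon arrays (40229, 38463 and 40963), and it did not pass (limma, adjusted p over probes = 0.717). The 3 probes stood between place 2 and place 20 from the brightest of the unnormalised probes, where an array may have little room to show a rise. EEF1A1 also has many processed copies in the genome that a probe may share. Neither point was tested. Quantile normalisation gives a place the same value on every array, so values such as 40229 and 38463 recur between these probes and arrays. The changes of the 3 probes thus follow their places among the brightest probes. EEF1A2, the paralogue found in muscle and neurons and at raised levels in some ovarian tumours, was at 2670, 2701 and 2574 in siCon and at 2509, 2711 and 2592 in siSTAT3. Its groups overlapped, and its change of -0.02 ± 0.10 had a 95% interval from -0.24 to 0.19. The other changes were 0.12 for EEF1G, -0.06 for EEF1D and -0.05 for EEF1B2.

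In the cap-binding complex EIF4G1, the scaffold that holds eIF4E, eIF4A and eIF3 together, came nearest to a call. It was at 2459, 2024 and 2229 in siCon and at 1591, 1438 and 1824 in siSTAT3. No siSTAT3 array reached the lowest siCon array, yet both groups spread widely. The log2 change was -0.47 ± 0.12 with an adjusted p of 0.0648 by limma. EIF4G1 passed in 3 of 17 alternatives, with array weights (adjusted p = 0.0145), with the replicate number as a block (0.0419) and without siCon replicate 3 (0.0382). Its second bright probe read 889, 861 and 649 in siCon and 645, 648 and 726 in siSTAT3, so that siCon replicate 3 lay among the siSTAT3 arrays (-0.24 ± 0.12). The last tested probe was near background (mean 91.5) and gave 0.06, and averaging the probes moved the gene's change to -0.22 and left it uncalled.

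None of the other 10 genes of this group passed. EIF4E, which binds the cap, was at 535, 514 and 826 in siCon and at 655, 611 and 596 in siSTAT3 (0.02 ± 0.15). One control array, replicate 3, stood above all others, and without it the change was 0.24 with an adjusted p of 0.287. EIF4E2, a cap-binding relative that mostly represses translation, showed the opposite picture, with siCon replicate 3 the lowest array (1096, 1133 and 791 in siCon, 1092, 1176 and 1189 in siSTAT3, 0.21 ± 0.13). EIF4A1, the helicase of the complex, had a mean of 17706 ± 1794 in siCon and 17147 ± 530.2 in siSTAT3 (-0.04 ± 0.11), its paralogue EIF4A2 gave 0.01, and EIF4A3, a helicase of the exon junction complex rather than of eIF4F, gave -0.18 ± 0.12. EIF4B and EIF4H, which stimulate the helicase, gave 0.07 and -0.03. EIF4G2, a scaffold without the eIF4E site, gave 0.05, and its 3 probes lay between 0.03 and 0.05. EIF4E3, a cap-binding relative, gave 0.06, and EIF4E1B, a germline form, was near background at 94.0 and 92.2.

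The inhibitors of eIF4E were uncalled too. EIF4EBP1 was at 150.1, 182 and 133 in siCon and at 169, 172 and 184 in siSTAT3 (0.19 ± 0.12, limma, adjusted p = 0.619), and EIF4EBP3 at 138, 174 and 151 against 166, 185 and 184 (0.21 ± 0.11). Both probes were dim and their groups overlapped. EIF4EBP2 gave -0.09 and EIF4ENIF1, which carries eIF4E into the nucleus, 0.11. The second EIF4EBP3 probe was near background (mean 93.2) and gave 0.08. The median of the 4 genes was 0.15, beside 0.01 for all tested genes. Their median deviation from the mean of all arrays was -0.19, 0.04 and -0.02 on siCon arrays 1 to 3. On siSTAT3 arrays 1 to 3 it was -0.02, 0.10 and 0.16, so the groups overlapped.

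The eIF5A proteins carry the modified lysine hypusine and help ribosomes past stretches such as proline runs. EIF5A, the common form, was at 1754, 1960 and 1622 in siCon and at 1600, 1887 and 1825 in siSTAT3 (-0.01 ± 0.11). Its 95% interval ran from -0.25 to 0.23, and the arrays of both groups were mixed. EIF5A2, the second gene, which is amplified in some ovarian cancers, was at 554, 566 and 697 in siCon and at 516, 426 and 485 in siSTAT3. The groups did not overlap, and the change of -0.34 ± 0.12 did not pass (limma, adjusted p = 0.222). It did not pass under any of 17 alternatives, and its second probe gave -0.18 with overlapping groups. That the 2 genes differ in response was not tested. EIF5AL1, an EIF5A-like gene almost identical to EIF5A, read close to background at 98.3 and 102.7.

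Initiator tRNA is carried by eIF2 (EIF2S1, EIF2S2, EIF2S3), and eIF2B (EIF2B1, EIF2B2, EIF2B4 and EIF2B5 were measured) reloads eIF2 with GTP. None of the 9 genes here passed, 6 lay below 0 and 3 above, and the median was -0.10 (-0.05 under median scaling). EIF2S1, the subunit that the stress kinases phosphorylate, was at 541, 572 and 489 in siCon and at 544, 418 and 478 in siSTAT3 (-0.16 ± 0.12, 95% interval -0.41 to 0.09). EIF2B1 went from a mean of 744 to 699 (-0.10), EIF2B4 gave -0.11, EIF2B5 -0.11 and EIF2B2 0.14. EIF2D, which can place tRNA without GTP, gave -0.11, EIF2S2 and EIF2S3, the beta and gamma subunits, gave -0.06 and 0.03, and EIF2A, a separate factor not to be confused with the alpha subunit of eIF2, gave 0.02.

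The 13 measured subunits of eIF3, the largest initiation factor, changed by -0.20 to 0.10, and none passed. The core subunit EIF3A was at 2155, 2388 and 1934 in siCon and at 1988, 2203 and 2115 in siSTAT3 (-0.03 ± 0.11). The arrays of EIF3L did not overlap, with 4975, 4912 and 4610 in siCon and 4330, 4330 and 4278 in siSTAT3 (-0.16 ± 0.10, limma, adjusted p = 0.585). EIF3M gave -0.20 and -0.17 on its 2 probes, and on the second, which does not represent the gene, the siSTAT3 arrays (3107, 3793 and 3608) lay below the siCon arrays (3935, 3872 and 4013). EIF3B gave between -0.13 and -0.05 on 3 probes and EIF3G 0.10. EIF3H gave -0.10, EIF3I -0.04, EIF3E -0.03, EIF3F 0.03, EIF3D 0.05, EIF3J 0.05 and EIF3K 0.09. EIF3C (0.06) has a near-identical neighbour, EIF3CL, whose transcript its probe may also bind. The control arrays themselves differed more than the groups did. The median deviation of the 13 subunits from the mean of all arrays was 0.09 and 0.11 on siCon arrays 1 and 2, -0.14 on siCon array 3 and -0.04 to 0.00 on the siSTAT3 arrays. The group's median change was -0.03, without siCon replicate 3 it was -0.07, and under median scaling it was 0.05, so the sign depends on the scaling.

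Start-site selection and subunit joining (EIF1, EIF1B, EIF1AX, EIF5, EIF5B) and the ribosome anti-association factor EIF6 gave changes from -0.14 to 0.16, and EIF1AD, an eIF1A-like protein, gave -0.04. None of these 7 passed. EIF1 was at 4870, 5207 and 4637 in siCon and at 5149, 4975 and 5097 in siSTAT3 (0.05 ± 0.10). EIF6 was at 2327, 2290 and 1716 in siCon and at 2189, 2320 and 2510 in siSTAT3 (0.16 ± 0.13), and its low array was again siCon replicate 3. EIF5, the GTPase activator of eIF2, ranged from 1946 to 2713 in siCon and from 1791 to 2710 in siSTAT3 (-0.14 ± 0.15), a range wider within groups than between them. EIF1AX gave 0.14 ± 0.13, EIF1B 0.08 and EIF5B -0.01. The Y-linked EIF1AY was below the filter on both probes and was not tested.

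**Figure D4:**
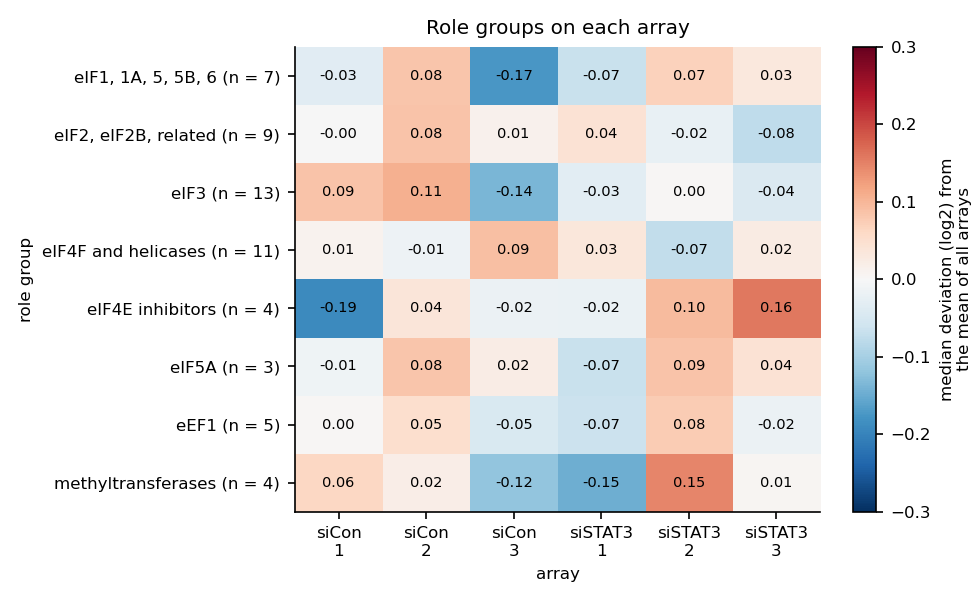
Median deviation (log2) of each role group from its mean over all 6 arrays, with arrays in columns and the number of genes in brackets; groups with under 3 genes are not drawn. On siCon array 3 the eIF3 group is at -0.14 and the group of eIF1, eIF1A, eIF5, eIF5B and eIF6 at -0.17.

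Array siCon 3 was also the array with the lowest mean correlation with its group over all genes (0.989, against 0.991 to 0.995 for the others). It was the farthest from the mean of all arrays for 13 members (22%), against 31.6% of all tested genes, and siCon array 2 for 14 members (23.7%, against 17.0% of all genes). The median member deviated by 0.08 on siCon array 2 and by -0.03 on siCon array 3. The part of either array in the members' values was not tested beyond leaving it out. Without siCon replicate 3 EEF2K was still called and EIF4G1 was added.

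The methyltransferases that modify these factors share the name stem. EEF1AKMT3, which methylates eEF1A, was at 561, 509.5 and 541 in siCon and at 614, 656 and 692 in siSTAT3. The groups did not overlap, and the change of 0.28 ± 0.10 did not pass (limma, adjusted p = 0.26; 0.192 to 0.621 with 1 array left out). A second EEF1AKMT3 probe lay below the filter, was not tested and went the other way. It read 97.8, 87.1 and 95.2 in siCon and 81.4, 82.4 and 84.9 in siSTAT3. EEF1AKMT1 and EEF1AKMT2 gave -0.13 and -0.17. EIF3J-DT, a noncoding RNA transcribed away from EIF3J, was near background at 106 and 111.

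Several members have more than 1 tested probe, which gives a check within the array. Of 16 such genes, 11 had all probes on the same side of 0 and 5 had probes on both sides. The spread between probes of a gene was 0.02 to 0.25, apart from EIF4G1, where it was 0.53. The widest of the rest belonged to EEF1A1 (0.25), EEF1B2 (0.24) and EIF2B4 (0.20). The dimmest probe had a mean of 178 for EEF1B2 and 90.6 for EIF2B4, and gave the highest change of its gene. What sets the spread was not tested.

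**Figure D5:**
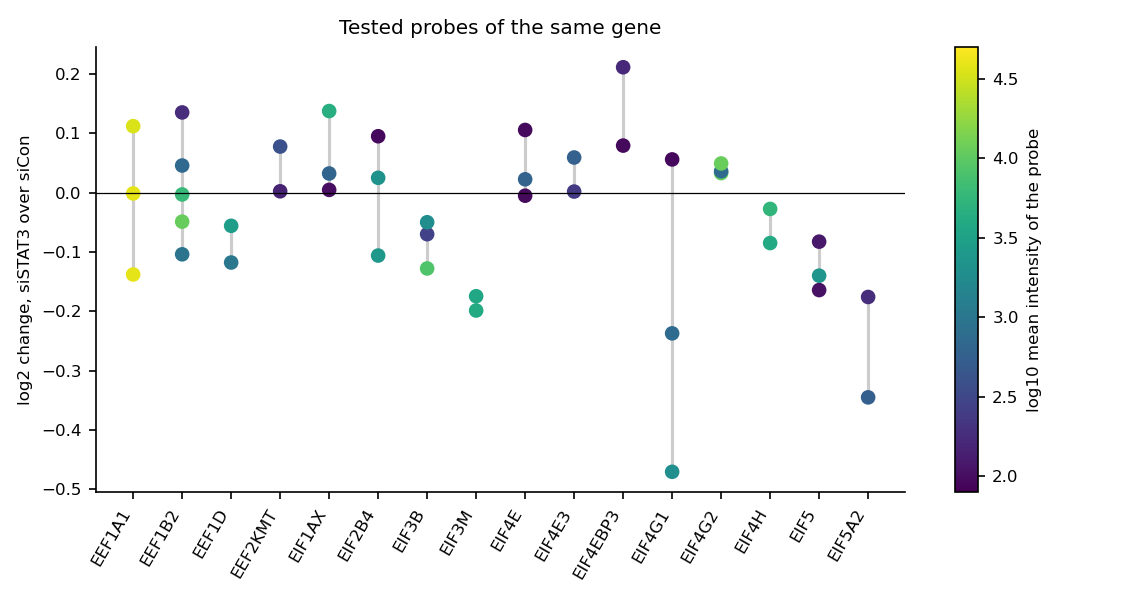
Log2 change, siSTAT3 over siCon, of each tested probe of the 16 factor genes with more than 1 probe; colour gives the probe's mean intensity on a log10 scale and grey lines join probes of a gene. EIF4G1 spans -0.47 to 0.06, and its dimmest probe is the one above 0.

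Sequence at the gene starts was not used by the rule. Many mRNAs of the translation machinery begin with a terminal oligopyrimidine (TOP) tract, a C followed by further C or T, through which mTOR controls their translation. Promoter windows from RefSeq (GRCh38.p14) were matched for 48 of the 60 genes, 64 windows in all. A C followed by at least 4 pyrimidines at the annotated start was found in 12 of the 48 genes (25%), against 5.14% of 27305 genes with a window, counting a gene if any of its windows matched. The 27305 genes were not limited to those tested on the arrays. All 12 were tested, none passed, and their changes ran from -0.20 to 0.13 with 8 above 0 and 4 below. The first 20 bases of 8 of them are shown beside those of EEF2K, which has no such tract there, with the tract in capitals. All are 5′ to 3′, and coordinates are of GRCh38.p14. EEF1A1 is at chr6:73521013-73521032, minus strand, EEF2 at chr19:3985444-3985463, minus, EEF1B2 at chr2:206159895-206159914, plus, and EIF2S3 at chrX:24054956-24054975, plus. EIF3F is at chr11:7987337-7987356, plus, EIF3D at chr22:36529147-36529166, minus, EIF4A2 at chr3:186783577-186783596, plus, EIF4B at chr12:53006456-53006475, plus, and EEF2K at chr16:22206278-22206297, plus.
EEF1A1: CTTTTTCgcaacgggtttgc
EEF2: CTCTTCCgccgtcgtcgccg
EEF1B2: CCTTTTTCCTCTCTTCagcg
EIF2S3: CTCTTTTggcaacatggcgg
EIF3F: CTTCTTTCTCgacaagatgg
EIF3D: CTCTTTTCCTggtttctcaa
EIF4A2: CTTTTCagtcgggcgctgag
EIF4B: CTTTTgcgttctctttccct
EEF2K: gctcaacctagaccagcccc

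The STAT palindrome TTCNNNGAA, which reads the same on both strands, was searched in the 250 bases before the start. It was present in 3 of 48 member genes (6.25%), against 8.09% of all genes with a window. EEF2K was not among them, which says only that these letters are not in this window. The 3 genes are shown because their motif is that of the factor knocked down, with the motif in capitals and 10 bases on either side. EIF3I is at chr1:32222334-32222362, plus strand, EIF4E at chr4:98929262-98929290, minus, and EIF4EBP3 at chr5:140547528-140547556, plus. None of the 3 passed (EIF3I -0.04, EIF4E 0.02, EIF4EBP3 0.21).
EIF3I: tgtcttctacTTCCGGGAAcgaaggggcg
EIF4E: gagactccacTTCCCAGAAgcctctcgtt
EIF4EBP3: atttccagctTTCTCTGAAccgggctggc

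The E-box CACGTG, also the same on both strands and not overlapping the STAT palindrome, was in the same 250 bases of 11 of 48 member genes (22.9%), against 7.73% of all genes with a window. EEF2K carries 1, beginning 59 bases before the start, and EIF4G1 carries a pair in its first window. The 11 genes include EEF2K, EIF4G1 and EIF5A2, the 3 with the lowest changes, but also EIF1B, EIF3F, EIF3K, EIF4A3, EIF4B, EIF4E, EIF4EBP3 and EIF4H, and their changes ran from -0.85 to 0.21 with 5 below 0 and 6 above. The E-box and TOP searches were chosen after the values were seen, and a match describes the letters only. For the STAT, E-box and TOP motifs alike the background was every gene with a window, tested on the arrays or not. No share over the tested genes was computed. The EIF4G1 stretch is chr3:184314442-184314564, plus strand, with both E-boxes in capitals.
EIF4G1: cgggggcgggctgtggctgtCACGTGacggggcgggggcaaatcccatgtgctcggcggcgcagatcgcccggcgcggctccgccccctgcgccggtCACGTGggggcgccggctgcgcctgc

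Partners of the factors outside the name rule were taken from 6 lists with 78 genes, of which 72 were tested. PABPC4, a cytoplasmic poly(A)-binding protein that links the mRNA tail to eIF4G, fell and was the 1 partner past the threshold, with none higher, against the 1.46% called over all genes. It was at 3438, 3231 and 3844 in siCon and at 2247, 2171 and 2367 in siSTAT3 (-0.63 ± 0.11, limma, adjusted p = 0.00661). All siSTAT3 arrays lay far below the siCon arrays. The call was lost without siSTAT3 replicate 1 (adjusted p = 0.0605) or 2 (0.0543), and in a test against a fold of 1.2 (0.378). The median of the 72 partners was 0.02.

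Among the other 18 tested initiation partners, all uncalled, the kinase MKNK2, which phosphorylates eIF4E, was at 978, 998 and 778 in siCon and 1284, 1078 and 1275 in siSTAT3 (0.41 ± 0.12, limma, adjusted p = 0.138). RPS6KB1, the S6 kinase that phosphorylates and inactivates eEF2K, was at 1064, 931 and 1063 in siCon and 1287, 1286 and 1270 in siSTAT3 (0.33 ± 0.10, adjusted p = 0.155). For both, the siSTAT3 arrays lay above all siCon arrays, as for 8.63% of all tested genes. ABCE1, which recycles ribosomes, gave -0.33 (limma, adjusted p = 0.349) and DHX29, a helicase for structured leaders, 0.28 (adjusted p = 0.346). PABPC4, MKNK2, RPS6KB1, ABCE1 and DHX29 were the initiation partners with an unadjusted p under 0.05 by limma. They were 5 of 19 (26.3%), against 12.1% of all tested genes.

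The eIF2 kinases, the phosphatase that reverses them and the downstream factors ATF4 and DDIT3 held no call among 11 tested genes. PPP1CC, a catalytic phosphatase subunit, was at 8227, 9405 and 10244 in siCon and 6964, 6895 and 6228 in siSTAT3 (-0.47 ± 0.11) and just missed the threshold with an adjusted p of 0.0523. EIF2AK2, the kinase PKR that senses double-stranded RNA, had non-overlapping arrays (2574, 2517 and 2572 against 2970, 2841 and 2867). Its siSTAT3 arrays lay higher, as for 8.63% of all tested genes, and the change of 0.18 ± 0.10 did not pass. No gene passed among 12 of elongation, hypusine and diphthamide (-0.19 to 0.29), 2 of termination, 9 mitochondrial translation factors (-0.23 to 0.46) or 19 cytosolic aminoacyl-tRNA synthetases and their scaffold (-0.10 to 0.32). In the last list MARS1 (0.32) and GARS1 (0.27), which charge methionine and glycine tRNAs, had unadjusted p under 0.05 by limma. Their adjusted p-values were 0.289 and 0.307. These 2 of 19 genes are a share no larger than the 12.1% of all tested genes with an unadjusted p under 0.05. Over all 72 tested partners 10 genes (13.9%) had such a p by limma. The groups of arrays did not overlap for 16 partners (22.2%, against 17.2% of all tested genes).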

How the data were processed

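Per the labels' protocols, biotin-labelled cRNA was read on Illumina bead arrays with 1 colour. The authors deposited a table of unnormalised probe intensity and a table of processed intensity, and the submitters' processing notes name BeadStudio with no version. Background subtraction by the authors is not described in the sources used, and no detection p-values came with the values. The processed columns share 1 distribution (median 94.2).

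Unnormalised intensities were quantile-normalised and taken to log2 in limma 3.58.1 (R 4.3.3), with no background subtraction, so changes of dim probes are understated by any background left. Symbols came from the platform annotation, updated through RefSeq (28059 of 28098 probes with 1 symbol by Entrez ID, 14 by accession). Probes with a mean log2 intensity above the 40th percentile were tested, and the brightest of them stood for its gene. The tests were two-sided (lmFit, then eBayes), and p-values were adjusted by Benjamini-Hochberg over all tested genes, or over all tested probes, with 0.05 as the threshold. The procedure was tested on simulated data. No pair of arrays was identical.

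The members, lists and tests were chosen with earlier results of these data known. Genes named are members past the threshold on any tested probe, the 4 smallest adjusted p-values in each role group, 13 fixed members (EIF2S1, EIF2B1, EIF3A, EIF4E, EIF4G1, EIF4A1, EIF4EBP1, EIF5A, EIF6, EEF1A1, EEF1A2, EEF2 and EEF2K), STAT3 and partners past the threshold. Other members and partners are named after their values were seen. There were 17 alternatives. They changed the scaling (by medians, normexp with an offset of 50, or the authors' own processed values), the filter (none, or the 60th or 75th percentile), the probe summary (the mean per gene) and the model (robust variances with an intensity trend, array weights, a replicate block, or limma's treat at a fold of 1.2), or left out 1 of the 6 arrays.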

Additional observations from a re-analysis of the deposited data

How the results depend on the processing

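EEF2K was called lower under each of the 17 alternatives (adjusted p from 1.51e-05 to 0.0325), and no member was called higher by limma under any of them. The members called lower rose from 1 to 2 genes, and from 1 to 2 probes, with array weights, with the replicate block and without siCon replicate 3, the added gene being EIF4G1 each time. With 1 array left out they ranged from 1 to 2 genes lower and 0 higher, and from 1 to 2 probes lower and 0 higher. The members' median change was 0.049 under median scaling and -0.02 to 0.00 with 1 array left out, a size at which it has no direction. Over all genes, 151 were lower and 56 higher. Median scaling gave 99 lower, array weights 270 lower and 167 higher, the replicate block 100 higher, and limma's treat at a fold of 1.2 gave 31 lower and 0 higher (79 higher at an unadjusted p under 0.05). With 1 array left out the counts ran from 57 to 254 lower and from 4 to 148 higher, the highest without siCon replicate 3. Lower genes made up 72.9% of the calls, 61.8% with array weights, 63.2% without siCon replicate 3, 64.7% with the block, 87.9%, 89.0% and 93.4% without siSTAT3 replicates 1, 2 and 3, and 100% with treat. Same-numbered arrays had correlations of 0.05, 0.18 and 0.07 between their deviations from the group means, and each siCon array correlated best with its own number. The deviations cancel out within each group, so these correlations are not independent. Whether the arrays are paired was not tested. Nothing in the labels pairs them, so the main fit did not treat them as pairs, and the replicate block was run only as an alternative. Precision is limited by how few arrays there are.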
